A study of Mus musculus with 15 samples.

Results

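The genes described here encode the proteasome, its inducible (immunoproteasome) subunits, its activators and its assembly factors. They were taken as every protein-coding mouse gene whose symbol begins with Psma to Psmg followed by a digit and that had 30 or more reads summed over the 15 libraries. Of 36528 gene IDs in each library 51 carried such a symbol, and 50 had enough reads. The one left out was Psmb11, the thymus-specific catalytic subunit, with 1 read in all. The 50 members comprised 3 inducible catalytic subunits, 2 subunits of the inducible activator PA28, 15 other subunits of the 20S core and 17 subunits of the 19S cap. They also held 4 other activators or inhibitors, 7 assembly chaperones, and Psmc3ip and Psme3ip1, which are named for binding a proteasome protein and are not subunits.

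RNA was sequenced from Cx3cr1-GFP-positive cells sorted from mouse cortex, labelled as microglia. The PS2APP group (n = 9) carried the transgenes of a model of Alzheimer's disease, human mutant presenilin 2 and amyloid precursor protein; 4 libraries were from mice 14 months old and 5 from mice 15 months old. The non-Tg group (n = 6), labelled as wild type without a transgene, had 2 libraries at 14 and 4 at 15 months. Since every cell was gated on GFP from the Cx3cr1 locus, both groups carried the reporter, and non-Tg mice were wild type only with respect to the transgenes. Not stated in the sample labels are the reporter's dosage, the strain, the transgene promoters and any pooling of animals, nor whether each library came from its own mouse. The p-values therefore measure the spread between these libraries, which may be technical.

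The proteasome is the chamber in which cells degrade proteins that are tagged with ubiquitin. Its 20S core is a stack of alpha and beta rings, and the beta subunits Psmb5, Psmb6 and Psmb7 hold the active sites. The 19S cap recognises, unfolds and feeds in the substrate. Interferons, above all interferon gamma, induce Psmb8, Psmb9 and Psmb10, which take the places of Psmb5, Psmb6 and Psmb7 in newly built cores, and Psme1 and Psme2, which form the PA28 cap. The resulting immunoproteasome is known for producing peptides that MHC class I molecules present, and microglia are among the brain cells known to carry it.

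Total counts per library ranged from 3664742 to 8455237 with a median of 5867848. The 8 microglia markers summed to 22569 to 33719 CPM (reads scaled to a common library size after TMM normalization) in PS2APP and 29151 to 38409 CPM in non-Tg libraries, and all 8 were detected. Lymphocytes carry much immunoproteasome, and their markers were low: the 7 T cell markers summed to at most 7.57 CPM in PS2APP and 11.4 in non-Tg libraries, the 6 NK cell markers to at most 6.14 and 5.28, with Ncr1 at 0 in every library, and the 6 B cell markers to at most 17.4 and 24.5. The sums of 11.4 and 24.5 were both in non-Tg replicate 9, which also had the highest Psme1 (125.7 CPM) and Psme2b (111.4 CPM). The part of lymphocytes in these values was not tested. The 8 border macrophage markers summed to 63.8 to 254 CPM in PS2APP and 37.2 to 227 in non-Tg libraries, and the 6 dendritic cell markers to 12.5 to 25.7 and 5.18 to 27.0. Neutrophil markers (8 genes) reached at most 9.21 and 84.6 CPM, and monocyte markers (6 genes) 78.2 and 65.1. The 8 neuron markers separated the groups, with 13.1 to 76.4 CPM in PS2APP and 78.0 to 208 in non-Tg libraries, and 2 of the 6 tested, Slc17a7 and Gad2, fell. Astrocyte, oligodendrocyte and endothelial markers (5 genes each) reached at most 404, 217 and 62.6 CPM in PS2APP libraries, and 873, 725 and 83.5 in non-Tg libraries. Of the astrocyte markers Gfap rose and Slc1a2 fell, and of the endothelial markers Flt1 rose and Pecam1 fell, and their part in the results on the proteasome was not tested. A list of 13 immediate early and heat shock genes (Hspa1a and Hspa1b are the heat shock genes) is called immediate early genes below. Its sum was high in PS2APP replicates 1 and 4, at 4437 and 4646 CPM. In non-Tg replicates 9 and 13 it was 9943 and 18255 CPM, against at most 501 CPM in the other libraries. Xist, the RNA of the inactive X chromosome, stood at 16.7 CPM in PS2APP replicate 14 and at 20.8 and 47.0 CPM in non-Tg replicates 12 and 13, and at 3676 CPM or more in the others, so the genotype groups mixed libraries with and without it.

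No member's level passed the test for a difference between the genotypes. Of the 50 members, which were all tested, 0 rose and 0 fell in PS2APP, while of all 13994 genes tested 0.958% rose and 0.222% fell, 1.18% in all (edgeR's quasi-likelihood test, age in the model, Benjamini-Hochberg adjusted p under 0.05). The smallest adjusted p of a member was 0.182, and DESeq2 and limma-voom also called 0. By unadjusted p under 0.05, 0 members were higher and 7 were lower in PS2APP, where 5.73% and 5.95% of all genes stood. None of the 50 had PS2APP and non-Tg libraries that did not overlap, which 0.636% of all genes had. A p that misses the threshold does not show equal levels, and the standard errors of the log2 fold changes were 0.16 to 0.55. In bulk samples fewer cells of a type and less RNA per cell cannot be told apart.

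The parts of the complex had medians of opposite sign. The median log2 fold change was 0.23 over the 5 inducible members, of which 2 were negative. It was -0.20 over the 32 constitutive 20S and 19S subunits, of which 27 were negative. Over all genes tested it was -0.02, and 52.7% of them were negative. The inducible median was 0.15 with no age term, and 0.057, 0.093 and 0.14 without non-Tg replicate 5, 13 or 12. It was -0.18 among the 15-month libraries alone, 0.98 among the 14-month libraries alone, and -0.06 without PS2APP replicate 14 and non-Tg replicates 12 and 13, the libraries low in Xist. The constitutive median was -0.27 at 15 months, -0.03 at 14 months, -0.13 without non-Tg replicate 11 and -0.11 with limma-voom. Of the 32 constitutive subunits, 18 were negative at 14 months. Without replicates 12, 13 and 14, and also without replicates 1, 4, 9 and 13, 20 were negative.

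**Figure D1:**
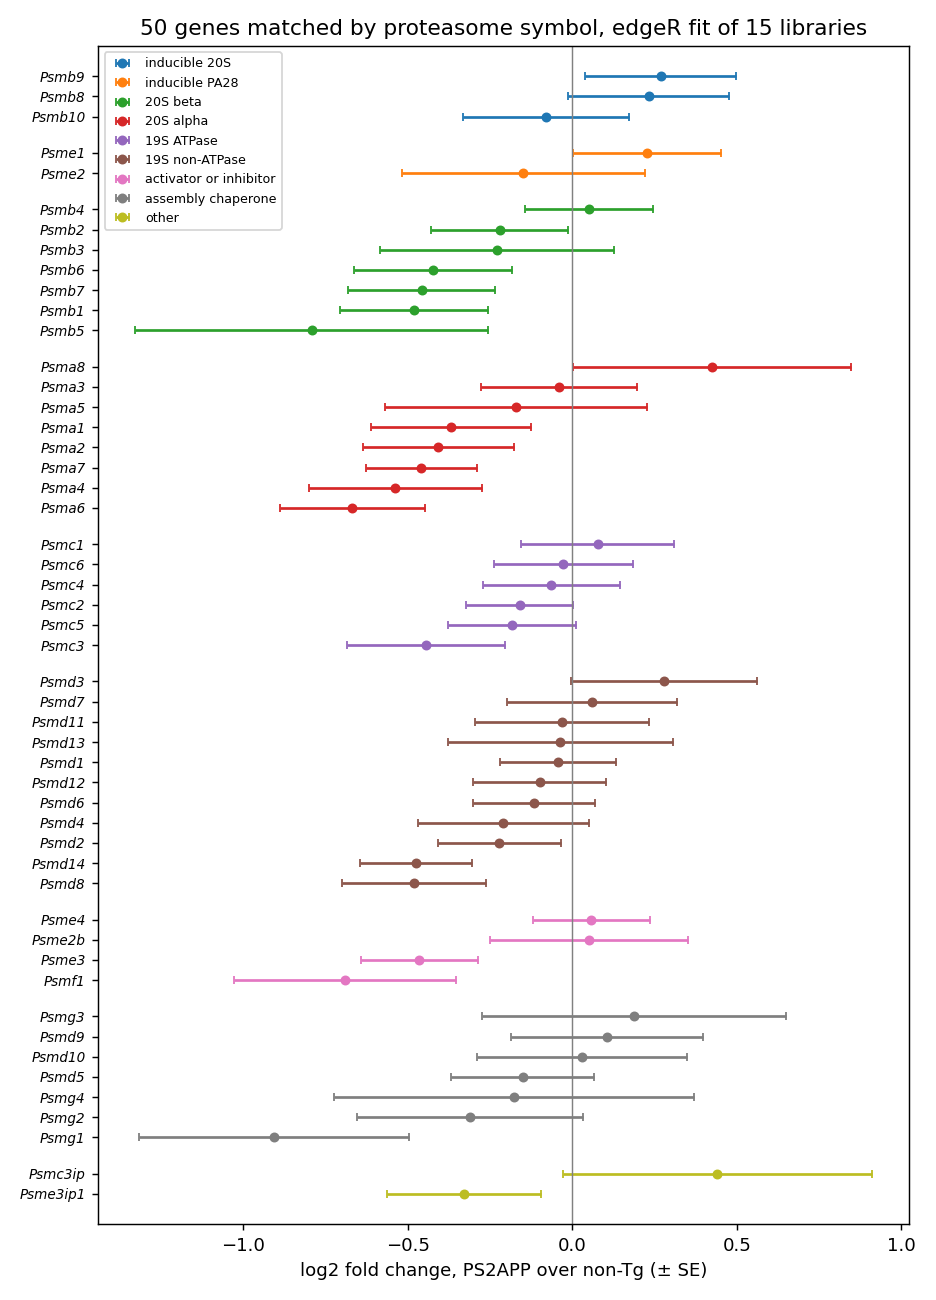
The log2 fold change of PS2APP over non-Tg is plotted on the x axis for each of the 50 genes, grouped by role, with bars for the standard error of the edgeR fit (9 against 6 libraries). Inducible members lie between -0.15 and 0.27, while most core subunits lie left of that range, down to -0.79 for Psmb5. Cap subunits lie between -0.48 and 0.28, many of them inside the inducible range.

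Psmb9 (chr17:34182030-34187330, GRCm38) and Psmb8 (chr17:34198195-34201454) lie close together in the MHC region, while Psmb10 lies at chr8:105935728-105938392. Psmb9, the inducible counterpart of Psmb6, had a lowest, median and highest level of 38.9, 57.6 and 75.9 CPM in PS2APP libraries, against 27.0, 48.8 and 77.8 CPM in non-Tg libraries. The groups overlapped over almost their whole range, although 7 of 9 PS2APP libraries lay above the non-Tg median. Its log2 fold change was 0.27 ± 0.23 (SE; edgeR adjusted p = 0.713), with an approximate 95% interval of -0.18 to 0.72. Psmb8, the counterpart of Psmb5, had 26.6, 47.8 and 61.8 CPM in PS2APP libraries, against 24.1, 43.6 and 57.9 CPM in non-Tg libraries, again with overlapping groups. Its log2 fold change was 0.23 ± 0.24 (edgeR adjusted p = 0.776; interval -0.25 to 0.71). Psmb10, the counterpart of Psmb7, had 19.7, 28.3 and 41.7 CPM in PS2APP libraries, against 15.5, 29.5 and 49.7 CPM in non-Tg libraries, so that the non-Tg libraries reached both further down and further up. Its log2 fold change was -0.08 ± 0.25 (edgeR adjusted p = 0.950; interval -0.57 to 0.41).

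The promoters of an exchange pair, Psmb8 and Psmb5, and of Psmb9 and Psme1 are shown because the inducible and the constitutive genes were compared on these libraries. Each runs from 250 bases before to 50 after the start site (RefSeq, GRCm38.p6), 5′ to 3′ on the gene's strand, with capitals for matches to the motifs searched.
Psmb8, chr17:34197945-34198244, plus strand: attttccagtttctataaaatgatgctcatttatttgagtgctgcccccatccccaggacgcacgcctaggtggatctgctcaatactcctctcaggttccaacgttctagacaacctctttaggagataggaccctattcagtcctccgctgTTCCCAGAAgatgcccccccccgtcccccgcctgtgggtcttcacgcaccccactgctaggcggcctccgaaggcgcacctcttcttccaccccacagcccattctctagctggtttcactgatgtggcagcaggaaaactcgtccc
Psmb5, chr14:54617946-54618245, minus strand: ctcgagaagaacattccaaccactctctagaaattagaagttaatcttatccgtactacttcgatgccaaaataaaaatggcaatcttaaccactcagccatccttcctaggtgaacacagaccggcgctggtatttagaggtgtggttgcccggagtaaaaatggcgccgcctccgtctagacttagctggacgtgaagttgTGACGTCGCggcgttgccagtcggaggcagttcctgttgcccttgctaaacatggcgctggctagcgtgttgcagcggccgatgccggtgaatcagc
Psmb9, chr17:34187281-34187580, minus strand: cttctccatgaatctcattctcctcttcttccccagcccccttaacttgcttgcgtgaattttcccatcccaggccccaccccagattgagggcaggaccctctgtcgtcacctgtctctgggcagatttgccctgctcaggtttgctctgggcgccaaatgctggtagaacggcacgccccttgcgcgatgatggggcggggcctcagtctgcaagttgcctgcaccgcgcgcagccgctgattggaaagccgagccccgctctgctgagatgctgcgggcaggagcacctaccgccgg
Psme1, chr14:55578244-55578543, plus strand: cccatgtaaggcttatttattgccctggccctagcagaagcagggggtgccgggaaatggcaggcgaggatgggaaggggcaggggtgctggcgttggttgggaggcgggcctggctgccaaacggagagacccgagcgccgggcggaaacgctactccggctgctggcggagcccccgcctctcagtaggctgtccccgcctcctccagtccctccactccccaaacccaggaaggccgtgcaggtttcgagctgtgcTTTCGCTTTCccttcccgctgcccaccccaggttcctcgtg
The motifs, searched on both strands, were the gamma-activated site, GAS (TTCNNNGAA), the interferon-stimulated response element (TTTC, any 2 bases, then TTTC) and an antioxidant response element of the kind bound by Nfe2l1 and Nfe2l2 (TGACNNNGC); no window of a member held overlapping matches of different motifs. In the Psmb8 window the capitals mark the GAS letters, in Psme1 the interferon-stimulated response element, and in Psmb5 the antioxidant response element; Psmb9 had no match. The RefSeq promoter table held 42 of the 50 members, including all 5 inducible ones. GAS letters stood in 1 of 5 inducible and 2 of 37 other members, against 9.55% of the 27025 genes in the table. The interferon-stimulated response element stood in 1 of 5 and 4 of 37, against 3.99%. The antioxidant element stood in 0 of 5 and 6 of 37 (16.2%), against 14.0% of the genes in the table. Those 6 were Psmb5, Psmb6, Psmc6, Psmd9, Psmd12 and Psme4. Psmb7 was not in the promoter table and was not searched. The Psmb9 window overlapped that of Tap1, the peptide transporter gene on the other strand, by 275 bases, the start sites lying 226 bases apart.

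The ratio of inducible to constitutive subunit within a library passed a test for a genotype difference for 2 of the 3 exchange pairs. The share of other gene pairs that would pass was not counted, and the ratios were chosen with earlier results of these data known. A lower level of the constitutive partner alone raises this ratio. The scaling between libraries enters this ratio only through the constant added to each value. It was taken as the log2 ratio of RPKM values (reads scaled to gene length and depth) with 0.5 added to each, and the difference in means was tested by exact permutation of the genotype labels (5005 arrangements, two-sided, with p adjusted over the 3 ratios). Because of the added 0.5, the fold of a low gene is understated.

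For Psmb9 over Psmb6 the log2 ratio was lowest at 0.07, median 0.53 and highest at 0.90 in PS2APP libraries, against -0.63, -0.08 and 0.59 in non-Tg libraries. All 9 PS2APP libraries lay above the non-Tg median and 4 above every non-Tg library. The mean was 0.57 ± 0.30 (SD, n = 9) in PS2APP and -0.06 ± 0.41 (n = 6) in non-Tg, a 1.55-fold higher ratio in PS2APP (difference 0.63, exact permutation p = 0.00480, adjusted 0.0132). For Psmb8 over Psmb5 the log2 ratio was 2.51, 3.13 and 3.95 in PS2APP libraries, against 1.52, 2.51 and 2.94 in non-Tg libraries. Again all 9 PS2APP libraries lay above the non-Tg median, and 5 lay above every non-Tg library. The mean was 3.10 ± 0.43 (SD, n = 9) in PS2APP and 2.42 ± 0.50 (n = 6) in non-Tg, a 1.61-fold higher ratio in PS2APP (difference 0.68, exact permutation p = 0.00879, adjusted 0.0132). For Psmb10 over Psmb7 the log2 ratio was -0.63, 0.09 and 0.23 in PS2APP libraries, against -1.16, -0.57 and 0.74 in non-Tg libraries, which enclosed the PS2APP range on both sides. The means were -0.06 ± 0.34 (SD, n = 9) in PS2APP and -0.34 ± 0.87 (n = 6) in non-Tg, and the difference of 0.28 did not pass the test (exact permutation p = 0.387). By age the difference was 0.87 at 14 months and 0.055 at 15 months (exact permutation p = 0.133 and 0.976). Whether this pair differs from the other two was not tested.

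**Figure D2:**
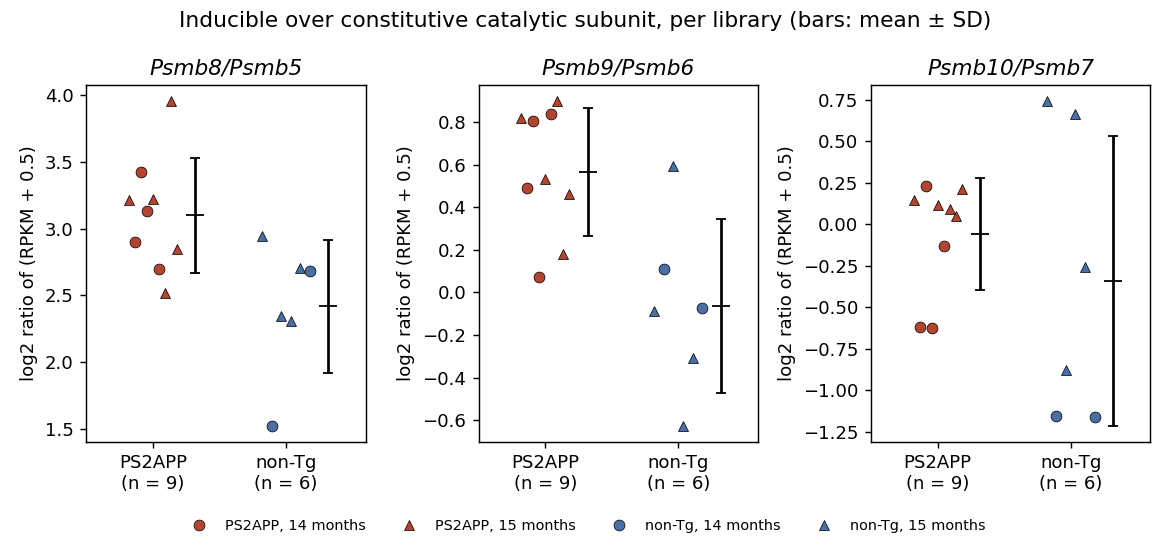
Each point is the log2 ratio of RPKM + 0.5 of an inducible over the constitutive subunit it replaces, in 1 library, for PS2APP (left, n = 9) and non-Tg (right, n = 6), with circles for 14 and triangles for 15 months and bars for the mean ± SD. PS2APP points lie higher for Psmb8/Psmb5 (mean 3.10 against 2.42) and Psmb9/Psmb6 (0.57 against -0.06) and inside the non-Tg range for Psmb10/Psmb7.

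Over all 15 libraries both ratios combined a positive but uncalled fold change of the inducible gene with a larger negative one of its partner, also uncalled. The log2 fold changes were 0.23 for Psmb8 and -0.79 for Psmb5, and 0.27 for Psmb9 and -0.42 for Psmb6. Of the 32 constitutive subunits, 27 were negative. Within an age only Psmb8 (log2 fold change 0.98) and Psmb5 (-0.12) at 14 months combined a positive with a negative value. Psmb9 (0.78) and Psmb6 (0.21) were both positive at that age. At 15 months both genes of each pair were negative, Psmb8 at -0.16 and Psmb5 at -1.15, Psmb9 at -0.0062 and Psmb6 at -0.76. Psmb6 had 22.0, 23.5 and 35.8 CPM in PS2APP libraries, against 20.5, 30.2 and 59.7 CPM in non-Tg libraries (log2 fold change -0.42 ± 0.24 SE; edgeR adjusted p = 0.516). Psmb5 had 0.996, 1.44 and 4.86 CPM, against 1.19, 3.85 and 6.15 CPM in non-Tg libraries (-0.79 ± 0.54; edgeR adjusted p = 0.612). Only 4 to 49 reads per library stood behind Psmb5, and 57.1% of the 50-base stretches of its transcript also occur in transcripts of other genes, so uniquely aligned reads understate its level and the ratio itself is not a ratio of molecules. For Psmb6 that share was 1.75%. Psmb7 had 12.7, 21.0 and 29.5 CPM in PS2APP libraries, against 19.1, 25.1 and 39.2 CPM in non-Tg libraries (-0.46 ± 0.22; edgeR adjusted p = 0.434).

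Within each age the differences kept their sign but did not pass the exact test: at 14 months they were 0.94 for Psmb8 over Psmb5 and 0.53 for Psmb9 over Psmb6 (exact permutation p = 0.0667 and 0.200, 4 against 2, where 0.0667 is the smallest possible), and at 15 months 0.58 and 0.69 (exact permutation p = 0.0873 and 0.0556, 5 against 4). With labels permuted only within an age, both passed (exact permutation p = 0.0111 and 0.00741). Without PS2APP replicates 1 and 4 and non-Tg replicates 9 and 13, where immediate early genes were high, Psmb8 over Psmb5 stood at 0.67 and no longer passed (exact permutation p = 0.0667), while Psmb9 over Psmb6 stood at 0.72 and did (0.00606). Neuron marker sums moved with genotype, as given above, and their part in the ratios was not tested.

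PA28 is the ring-shaped cap that Psme1 and Psme2 build together and that opens the core without ubiquitin or ATP. Psme1 (chr14:55578494-55581527) had the highest mean level of all members, 21.0 RPKM over the 15 libraries. It had 54.5, 83.4 and 100.9 CPM in PS2APP libraries, against 41.3, 64.6 and 125.7 CPM in non-Tg libraries, where the highest was replicate 9 and the next 70.2. Its log2 fold change was 0.23 ± 0.22 (SE; edgeR adjusted p = 0.768). Psme2 had 8.06, 9.94 and 11.8 CPM in PS2APP libraries, a narrow range, against 3.05, 10.4 and 33.0 CPM in non-Tg libraries, which reached below and above it (-0.15 ± 0.37; edgeR adjusted p = 0.926). Psme2b (chr11:48945345-48946410), a copy of Psme2 (chr14:55587440-55591101) listed as its own gene, had 26.1, 39.8 and 57.4 CPM in PS2APP libraries, against 18.3, 35.3 and 111.4 CPM in non-Tg libraries. Of the 50-base stretches of Psme2, 59.3% also occur in Psme2b, so reads of the pair cannot be assigned with certainty, and the low level of Psme2 against Psme1 is uncertain. With the reads of both summed, the log2 fold change was 0.011 ± 0.29 (edgeR adjusted p = 0.994).

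In the constitutive core the alpha subunits form the outer rings that gate the entrance. Psma6 was the most abundant core subunit per length, at 20.6 RPKM on average, and Psma5 the least abundant alpha subunit, at 1.27 RPKM. Psma6 had 52.4, 69.9 and 84.0 CPM in PS2APP libraries, against 65.7, 93.0 and 224 CPM in non-Tg libraries; 0 of 9 PS2APP libraries lay above the non-Tg median. Its log2 fold change of -0.67 ± 0.22 (SE) had the smallest p of all members (edgeR adjusted p = 0.182) and was -0.36 without non-Tg replicate 11, the library with 224 CPM. Psma7 had 34.9, 45.3 and 60.0 CPM in PS2APP libraries, against 50.9, 60.4 and 82.5 CPM in non-Tg libraries, with all 9 PS2APP libraries below the non-Tg median (-0.46 ± 0.17; edgeR adjusted p = 0.241). Psma8, known as the testis form of Psma7, was the alpha subunit with the largest positive value, 0.43 ± 0.42 (edgeR adjusted p = 0.768), at a low level of 1.28 RPKM; without non-Tg replicate 2, the highest at 20.9 CPM, it was 1.05. Altogether 7 of 8 alpha subunits were negative, with a median of -0.39.

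Of the 7 constitutive beta subunits, 6 were negative, with a median log2 fold change of -0.42. Psmb4, a non-catalytic subunit, was the most abundant of them at 15.8 RPKM and the exception in sign, with 35.4, 55.3 and 73.2 CPM in PS2APP libraries, against 37.8, 60.8 and 70.8 CPM in non-Tg libraries (0.05 ± 0.19 SE; edgeR adjusted p = 0.961). Psmb5 had the lowest value, at 0.862 RPKM, a level that uniquely aligned reads understate. Psmb1 stood at -0.48 ± 0.22 (edgeR adjusted p = 0.409) and was among the 7 members with an unadjusted p under 0.05. The summed level of the 14 core subunits other than Psma8 was 84.2, 109 and 132 RPKM (lowest, median, highest) in PS2APP libraries, against 104, 129 and 210 RPKM in non-Tg libraries. The value of 210 came from non-Tg replicate 11, which also had the highest neuron marker sum, 208 CPM. Without that library the median log2 fold change of the 32 constitutive core and cap subunits was -0.13 rather than -0.20, and the part of neuron transcripts in it was not tested.

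**Figure D3:**
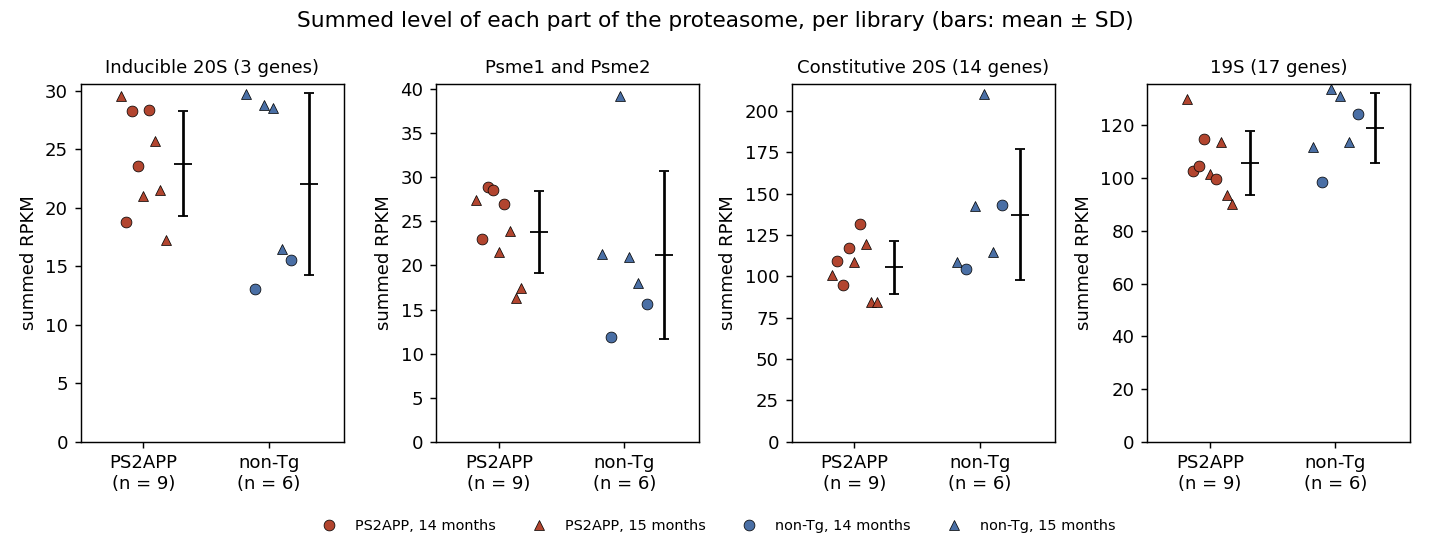
The summed RPKM of each part of the proteasome is plotted for every library, PS2APP left (n = 9) and non-Tg right (n = 6), with circles for 14 and triangles for 15 months and bars for the mean ± SD. The sum of the 3 inducible core genes spans 17.2 to 29.5 in PS2APP and 13.1 to 29.7 in non-Tg libraries, and the constitutive core sum lies lower in PS2APP (mean 106 against 137) with 1 non-Tg library at 210.

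The 19S cap has 6 ATPases, which unfold substrates, and 11 further subunits here, which bind or trim ubiquitin chains and hold the cap together. Its summed level was 90.1, 103 and 130 RPKM in PS2APP libraries, against 98.6, 119 and 134 RPKM in non-Tg libraries, so that the groups overlapped over most of their range. Among the ATPases 5 of 6 were negative, from -0.45 ± 0.24 (SE) for Psmc3 (edgeR adjusted p = 0.487) to 0.08 ± 0.23 for Psmc1 (0.945). Psmc5 was the most abundant ATPase at 9.56 RPKM and Psmc1 the least at 4.49. Psmd14, the deubiquitinase that removes ubiquitin as the substrate enters, had 29.7, 41.9 and 47.4 CPM in PS2APP libraries, against 41.8, 57.3 and 63.2 CPM in non-Tg libraries. All 9 PS2APP libraries were below the non-Tg median, and the log2 fold change was -0.48 ± 0.17 (edgeR adjusted p = 0.230). Psmd8 stood at -0.48 ± 0.22 (edgeR adjusted p = 0.393), and at -0.25 without non-Tg replicate 11. Psmd6 was the most abundant non-ATPase subunit at 10.49 RPKM. Psmd3 was the least abundant at 2.58 RPKM and had the largest positive value, 0.28 ± 0.28 (edgeR adjusted p = 0.770), with PS2APP replicate 1 at 48.7 CPM and the next PS2APP library at 28.7; without that replicate it was 0.080, and among 14-month libraries -0.12. Of the 11 non-ATPase subunits, 9 were negative, with a median of -0.10.

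Among other caps and inhibitors, Psme3, the nuclear PA28 gamma, had 31.3, 41.4 and 57.4 CPM in PS2APP libraries, against 48.3, 54.9 and 76.3 CPM in non-Tg libraries. Only 1 of 9 PS2APP libraries lay above the non-Tg median, and the log2 fold change was -0.47 ± 0.18 (SE; edgeR adjusted p = 0.264). Psme4, the large single-chain activator PA200, stood at 0.06 ± 0.18 (edgeR adjusted p = 0.948). Psmf1, the proteasome inhibitor PI31, stood at -0.69 ± 0.34 (edgeR adjusted p = 0.434), but non-Tg replicate 11 held 129 CPM where the next non-Tg library held 37.4, and without it the value was -0.09. Among the 7 assembly chaperones, which build the rings and the cap base, Psmg1 had the most negative value of all members. It had 1.84, 6.77 and 11.9 CPM in PS2APP libraries, against 2.90, 11.4 and 17.2 CPM in non-Tg libraries (-0.91 ± 0.41; edgeR adjusted p = 0.391). Psmg3 was the least abundant chaperone at 1.47 RPKM and had their largest positive value, 0.19 ± 0.46 (edgeR adjusted p = 0.926), and Psmd5 was the most abundant at 3.34 RPKM. The non-subunits Psmc3ip and Psme3ip1 stood at 0.44 ± 0.47 and -0.33 ± 0.23 (edgeR adjusted p = 0.782 and 0.633).

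The fitted genotype difference of the 5 inducible members had opposite signs at 14 and 15 months, but this change did not pass a test. At 15 months the genotypes overlapped for all 5. At 14 months 4 PS2APP libraries stood against 2 non-Tg libraries, which allows only 15 splits. The share of all genes without overlap between the genotypes at 14 months was not counted. Overlap at 14 months is therefore given below as a description and not as a result about these genes. Fitted within an age, the log2 fold change was positive for all 5 at 14 months, from 0.66 to 1.07, and negative for all 5 at 15 months, from -0.0062 for Psmb9 to -0.47 for Psmb10 and -0.73 for Psme2, and edgeR called none at either age. At 14 months Psme1 averaged 93.1 ± 10.03 CPM in PS2APP (SD, n = 4) and 47.6 ± 8.90 in non-Tg (n = 2), and at 15 months 72.4 ± 17.1 in PS2APP (n = 5) and 81.3 ± 29.96 in non-Tg (n = 4). Psmb8 averaged 47.3 ± 12.4 CPM in PS2APP and 24.6 ± 0.693 in non-Tg at 14 months, and 45.2 ± 13.9 and 50.1 ± 11.1 at 15 months. Psmb9 averaged 62.0 ± 10.3 CPM in PS2APP and 36.8 ± 3.91 in non-Tg at 14 months, and 56.8 ± 15.0 and 56.7 ± 21.5 at 15 months. Psmb10 averaged 31.2 ± 6.44 CPM in PS2APP and 20.04 ± 6.39 in non-Tg at 14 months, and 28.7 ± 8.18 and 39.5 ± 11.6 at 15 months. Psme2 averaged 9.32 ± 0.995 CPM in PS2APP and 4.43 ± 1.95 in non-Tg at 14 months, and 10.6 ± 1.32 and 17.5 ± 10.7 at 15 months. The non-Tg means of all 5 were thus higher at 15 than at 14 months, and the PS2APP means lay closer together. At 14 months all 4 PS2APP libraries lay above both non-Tg libraries for Psmb8, Psmb9, Psme1 and Psme2, but not for Psmb10, where the lowest PS2APP library had 24.0 and the higher non-Tg library 24.6 CPM. The non-Tg side rested on replicates 5 and 13, and replicate 13 was among the libraries high in immediate early genes and low in Xist. Replicate 13 also had the highest neutrophil and astrocyte marker sums of all libraries, 84.6 and 873 CPM. The part of these in the values at 14 months was not tested.

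The genotype by age term was negative for all 5, from -0.75 ± 0.45 (SE) for Psmb9 to -1.77 ± 0.66 for Psme2, with Psme1 at -1.13 ± 0.39, Psmb8 at -1.09 ± 0.45 and Psmb10 at -1.09 ± 0.47. None was called (edgeR adjusted p 0.635 to 0.709), as was 0.0% of all genes; 4 of the 5 had an unadjusted p under 0.05, where 3.61% of all genes had a negative term at that level. Psme2b stood at -1.40 (edgeR unadjusted p = 0.0184) and Psmd8 at -0.88 (0.0466), and no other member reached that level. The age coefficient itself called 0 of 50 members and 0.0% of all genes (edgeR), with 2 members, Psmb7 and Psmd3, at an unadjusted p under 0.05, where 7.95% of all genes stood.

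**Figure D4:**
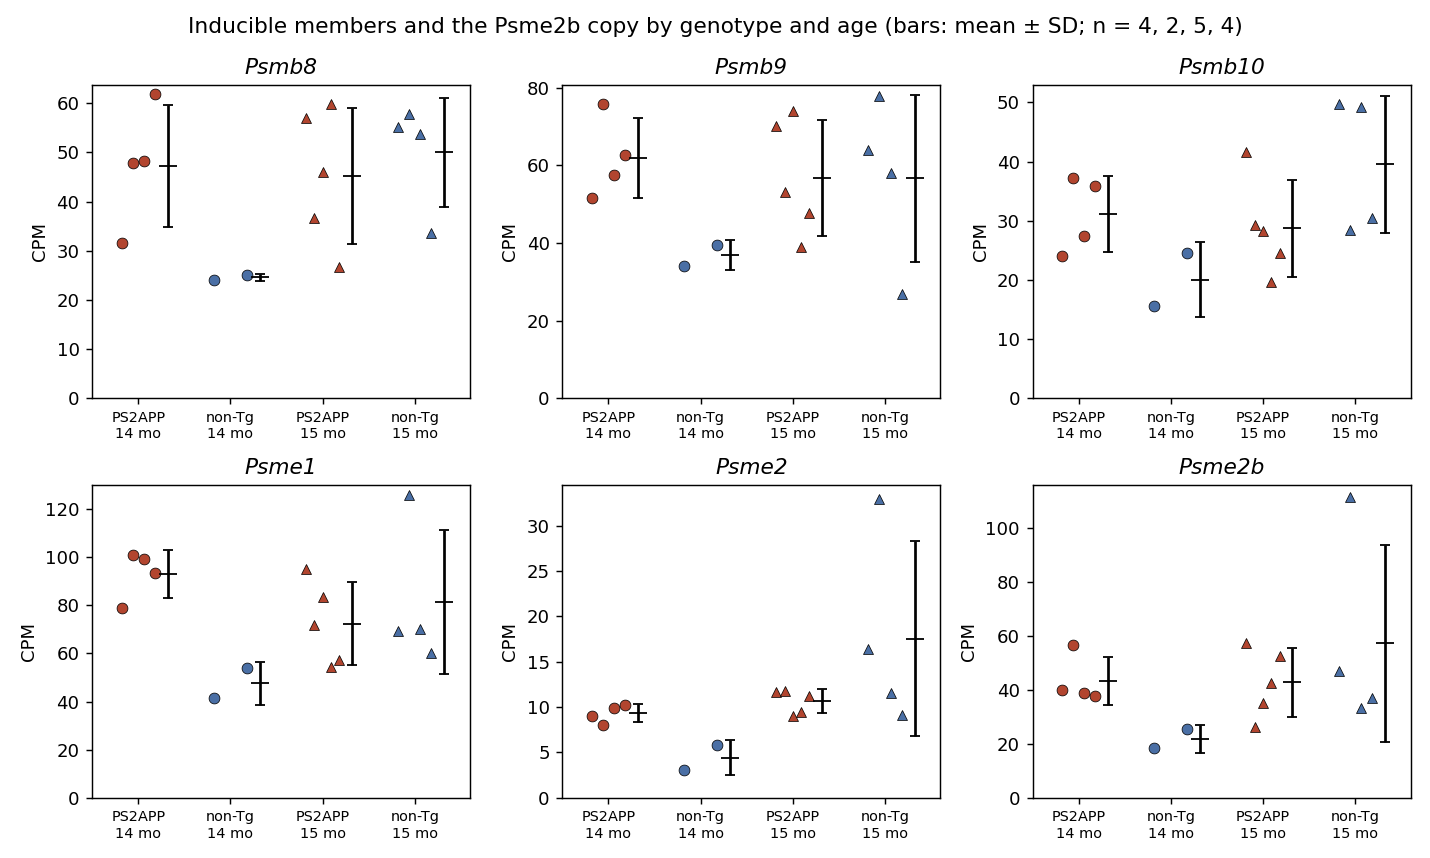
CPM of each inducible member and of the Psme2b copy is plotted per library, PS2APP left of non-Tg at 14 and then at 15 months (n = 4, 2, 5 and 4), with bars for the mean ± SD. At 14 months PS2APP points lie above both non-Tg points except for Psmb10 (Psme1 averages 93.1 against 47.6), while at 15 months the genotypes overlap. The share of all genes without overlap at 14 months was not counted, so this is a description only.

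Within the 9 PS2APP libraries, Psmb9 was set against 7 genes on log2 CPM. It varied with Psme1 (Pearson r = 0.85, exact permutation p = 0.00352, adjusted over the 7 relations 0.0183; Spearman rho = 0.83, exact permutation p = 0.00827) and with Psmb10 (r = 0.84, exact permutation p = 0.00523, adjusted 0.0183; rho = 0.82, exact permutation p = 0.0108). Without PS2APP replicates 4 and 14, the farthest from the median of Psmb9, r was 0.68 and 0.67. For Psmb8 r was 0.27 (exact permutation p = 0.483; rho = 0.22, exact permutation p = 0.581) and 0.80 without those 2, so that this relation rested on which libraries were kept. Tap1, whose promoter window overlaps that of Psmb9, had r = 0.37 (exact permutation p = 0.325; rho = 0.38, exact permutation p = 0.313; 0.49 without the 2). Psme2 had r = -0.24 (exact permutation p = 0.535; rho = -0.33, exact permutation p = 0.385). Nlrc5 had r = 0.61 (exact permutation p = 0.0852; rho = 0.37, exact permutation p = 0.336), and -0.03 without the 2. Psmb5 had r = 0.65 (exact permutation p = 0.0610) and rho = 0.77 (exact permutation p = 0.0214, adjusted 0.0499), and r = 0.83 without the 2. The ages held 4 and 5 PS2APP libraries and got no r of their own. With each age's mean removed and orders permuted within an age, a check chosen after seeing the data, r was 0.91 for Psme1 and 0.83 for Psmb10 (exact permutation p = 0.00938 and 0.0142, both 0.0498 adjusted over the 7), and the other 5 did not pass, from -0.13 for Psme2 to 0.63 for Psmb5 (exact permutation p 0.0906 to 0.752).

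Genes that work with the proteasome were counted in the same fit. Of 19 tested partners and regulators, such as ubiquitin receptors and the transcription factors Nfe2l1 and Nfe2l2, none was called (median log2 fold change -0.10; edgeR smallest adjusted p 0.472, 0 at an unadjusted p under 0.05). Their smallest p-values belonged to the shuttle factors Ubqln1 (0.31 ± 0.16 SE) and Ubqln2 (0.44 ± 0.23), the cap deubiquitinase Usp14 (0.28 ± 0.21) and Akirin2, a factor for nuclear import of proteasomes (0.25 ± 0.19). Of 20 ubiquitin and p97 genes none was called (edgeR; median 0.02). The 1 gene with an unadjusted p under 0.05 was Usp18, the protease of the ubiquitin-like ISG15, with 18.5 ± 8.20 CPM in PS2APP and 6.85 ± 2.69 in non-Tg (SD, n = 9 and 6; log2 1.43 ± 0.40 SE, edgeR adjusted p = 0.0935). The p97 cofactors Faf1 (-0.30 ± 0.19) and Nploc4 (-0.26 ± 0.17) did not pass.

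Among these lists of related genes, only that of MHC class I processing held called ones. Of 16 tested, 2 rose (12.5%, where 0.958% of all genes rose) and 0 fell (median log2 fold change 0.12), the class I heavy chain H2-D1 (log2 1.07 ± 0.20 SE; edgeR adjusted p = 0.00583) and the class I transactivator Nlrc5 (1.97 ± 0.40; 0.0110), while H2-K1 (0.83 ± 0.21; 0.0562) and B2m (0.50 ± 0.18; 0.245) did not pass. Tap1 had 35.8, 48.5 and 64.9 CPM in PS2APP libraries, against 13.02, 40.5 and 61.3 CPM in non-Tg libraries (0.60 ± 0.28; edgeR adjusted p = 0.394). The genotype by age term was negative at an unadjusted p under 0.05 for 5 of the 16 (31.3%, against 3.61% of all genes), namely H2-D1 (-0.98), H2-K1 (-0.85), B2m (-0.80), Nlrc5 (-2.26) and Tap1 (-1.67), and none was called (edgeR smallest adjusted p 0.568). Reads of H2 genes can be shared with near-identical copies. Of 15 tested genes of interferon signalling none was called (edgeR, median 0.15). At an unadjusted p under 0.05, 4 were higher (26.7%) and 1 was lower (6.67%), where 5.73% and 5.95% of all genes stood. Among the higher were Stat2 (0.87 ± 0.24, edgeR adjusted p = 0.0929) and Irf9 (0.44 ± 0.16, edgeR adjusted p = 0.237). The lower one was Jak1 (-0.34 ± 0.13, edgeR adjusted p = 0.240).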

How the data were processed

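Sorted-cell RNA of 15 mouse samples was compared by genotype (9 PS2APP, 6 non-Tg), as given in the sample titles. The aligner was GSNAP and the genome GRCm38, both per the submitters' processing notes. Not stated there or in the labels are the aligner's version, the annotation, how libraries were prepared and whether they kept strand. Per the file headers, each deposited table holds the raw count of reads that align uniquely to a gene model, and the RPKM adjusted by the authors with a size factor per sample, whose computation is not stated. Unique alignment lowers the values of genes with near-identical copies: of 49 members found in GENCODE M21 transcripts, 8 shared over 20% of their 50-base stretches with another gene (Psme2b, Psme2, Psmb5, Psma5, Psma4, Psmc3ip, Psmd2 and Psma3) and 25 shared none.

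Symbols came from a RefSeq table of GRCm38.p6, which matched 31049 of the 36528 IDs. The test on counts was edgeR's (4.0.16, R 4.3.3) quasi-likelihood fit with age and genotype (TMM, filterByExpr, Benjamini-Hochberg over 13994 genes), after a test on simulated data. Standard errors are the log2 fold change over the square root of F, and intervals are 1.96 standard errors to each side. CPM uses TMM-scaled library sizes; RPKM was used to compare genes and for ratios (pseudocount 0.5). Over 51 pairs of samples of a group the chi-square per degree of freedom was 10.9 to 74.5, more than counting error alone would give. This does not show that the samples came from separate mice. Each sample counted once in the tests. The count of reads per library gives the depth; counting error is largest for Psmb5.

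The members, lists and tests were chosen with earlier results of these data known. Named are the inducible members and their partners, the extremes of each class by fold change and RPKM, and up to 4 genes of each related list with the smallest p, of which 2 are not reported here; Tap1, Psmb1, Psmd14, Psma7, Psme3 and Psme2b were added after their values were seen. Paaf1 of the related lists and Trbc2 of the markers were not matched to a symbol, and Pi31, listed as a partner, is the member Psmf1. As alternatives, age was dropped from the model, scaling was by RLE or by total, low counts were filtered otherwise, 1 surrogate variable was added (sva 3.50.0), DESeq2 1.42.0, limma-voom (3.58.1) and edgeR's robust fit were run, and ages were fitted alone or samples left out.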

Additional observations from a re-analysis of the deposited data

Results flagged for a closer look

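Single libraries stood far from the rest of their group (Dixon's test at 95%) in 16 of 106 checks of members and ratios, where chance flags about 1 in 20. Non-Tg replicate 11 was highest for Psma6 (224 CPM, next 110), Psmf1 (129, next 37.4), Psmc2 (92.4, next 63.1), Psma2 (92.2, next 53.1), Psmb2 (68.4, next 45.7) and Psma5 (12.6, next 6.38). Non-Tg replicate 9 was highest for Psme1 (125.7 CPM, next 70.2) and Psme2b (111.4, next 47.1). In non-Tg replicate 2, Psma8 was highest (20.9 CPM, next 8.59) and Psma3 lowest (10.1, next 15.8). PS2APP replicate 1 was highest for Psmd7 (125.5 CPM, next 47.2), Psmd13 (51.3, next 21.2) and Psmd3 (48.7, next 28.7). Psmc2 was highest in PS2APP replicate 14 (77.0 CPM, next 60.8), Psmb6 in PS2APP replicate 6 (35.8, next 27.5), and Psmd12 lowest in PS2APP replicate 15 (24.2, next 43.3).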

How the results depend on the processing

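No paired analysis was possible because the groups share no replicate numbers. No member was called under any of the 13 alternatives with all genes or in the 15 fits that left out 1 sample (edgeR, DESeq2 or limma-voom adjusted p under 0.05). Over all genes 261 were called higher and 127 lower with DESeq2, 46 and 4 at 14 months, 55 and 10 at 15 months, 72 and 9 without replicates 12, 13 and 14, and 51 lower with limma-voom, against 134 and 31; leaving out 1 sample gave 100 to 152 higher and 18 to 42 lower.

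The log2 ratio difference of Psmb8 over Psmb5 did not pass at 14 months (0.94), at 15 months (0.58) or without replicates 1, 4, 9 and 13 (0.67), and that of Psmb9 over Psmb6 did not at 14 (0.53) or 15 months (0.69); fewer samples entered each of these tests. Both passed in all 15 tests that left out 1 sample (0.51 to 0.79 and 0.52 to 0.76). That of Psmb10 over Psmb7 was 0.87 at 14 and 0.055 at 15 months, -0.13 without replicates 1, 4, 9 and 13, and 0.12 to 0.50 when 1 sample was left out; the cause was not tested.

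None of the 50 log2 fold changes was called, and their sign changed for 18 members at 14 months, 7 at 15 months, 11 without replicates 1, 4, 9 and 13, 10 without replicates 12, 13 and 14, 7 with limma-voom, 5 with a surrogate variable, 0 to 2 in the other alternatives and 0 to 8 when 1 sample was left out; the cause was not tested. Among the inducible members and their partners, at 15 months Psmb8 stood at -0.16, Psmb9 at -0.0062 and Psme1 at -0.18, and at 14 months Psmb10 stood at 0.66, Psme2 at 1.07 and Psmb6 at 0.21. Psmb8 was -0.063 without replicates 12, 13 and 14. Psme2 was 0.050 with limma-voom, 0.19 without replicates 1, 4, 9 and 13, and 0.011 with the Psme2b reads summed in (chosen after seeing the data). Leaving out 1 sample gave -0.26 to 0.038 for Psmb10 and -0.41 to 0.26 for Psme2.

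Depth limits Psmb5 most (4 to 49 reads per library), and 7 further members had fewer reads in all than Psme2 (1012): Psmc3ip, Psmg4, Psma5, Psmg3, Psmb3, Psmg1 and Psma8.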
